A study of Mus musculus with 18 samples.

Results

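CD103+ CD11b+ CD64+ macrophages of the mouse small intestine were compared according to whether they carried green fluorescent protein (GFP). The comparison took the 3 arrays titled GFPplus CD103CD11bCD64 and the 3 titled GFPminus CD103CD11bCD64, which are 6 of the 18 arrays of the series. The 6 groups of the series are these macrophages, CD11bCD64 macrophages and CD103 dendritic cells, each sorted with and without GFP. All mice were of the VDTR strain, in which, as background, the villin promoter drives a diphtheria toxin receptor joined to GFP in the intestinal epithelium. Every mouse had been given diphtheria toxin into the peritoneum, 2 ng per kg, and cells were taken 4 hours after it, so no group is untreated. Cells were sorted as Live CD45+ CD11c+ MHCII+ CD103+ CD11b+ CD64+ and then as GFP+ or GFP-. The labels give male/female for sex and an n value of 4, whose meaning they do not state. They do not say whether the 3 arrays of a group came from separate mice, so the p-values below measure only the spread between these samples, which may be technical.

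Intestinal macrophages lie beneath the epithelium and clear dying epithelial cells by efferocytosis, the engulfment of apoptotic cells. A phagocyte that has taken up material from a cell labelled with GFP can itself be sorted as GFP-positive. Macrophages handle such a meal with receptors for phosphatidylserine, lysosomal hydrolases and exporters of cholesterol. CD64, encoded by Fcgr1, is an Fc receptor used to tell intestinal macrophages from dendritic cells. CD103, encoded by Itgae, is the integrin chain that pairs with Itgb7 and binds E-cadherin.

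All values below are deposited log2 values. Each probe had been centred on its median over the 18 arrays, so a value of 0 is the middle of the series and not a low or high level. Fold changes assume base 2, which was inferred from the values. Differences are GFP-plus minus GFP-minus, with the standard error (SE) of the limma fit and n = 3 arrays per group. The SE and p of a gene rest on a spread pooled over the 6 groups of all 18 arrays. They can therefore understate the spread where the compared arrays are uneven, as for Itgae, with an SD of 2.05 on the GFP-minus arrays. A gene passed where its adjusted p (limma, Benjamini-Hochberg over 22180 genes) was under 0.05. In bulk samples, fewer cells of a type and less RNA per cell cannot be told apart.

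The lineage label held against the dendritic cells of the series. Averaged over both GFP gates, 12 of 12 macrophage markers were higher than in CD103 dendritic cells in limma, among them Fcgr1 by 4.87 ± 0.23 (SE) and Csf1r, the receptor for colony-stimulating factor 1, by 5.90 ± 0.14. Over all genes, 5.33% were higher and 2.6% were lower in that comparison. Of 6 markers of type 1 dendritic cells 5 were lower, as were 4 of 7 markers of type 2 or of all dendritic cells, while Notch2 was higher. Itgam, which encodes CD11b, was higher by 4.64 ± 0.17. CD64 and CD11b were themselves gates of the sort, so Fcgr1 and Itgam are no independent check of the label. Itgae, of the CD103 gate, was at -4.49 ± 0.46 in the same comparison.

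The transcript of the CD103 gate was not uniform. Itgae stood at 3.44, -0.43 and 2.66 on GFP-minus arrays 1, 2 and 3 and at -0.44, -0.15 and 0.05 on the GFP-plus arrays. It was high on GFP-minus arrays 1 and 3, and the other 4 arrays lay within or close to the range of the CD11bCD64 macrophages, from -0.53 to -0.05. The CD103 dendritic cells reached 4.93 to 5.56. Over both gates Itgae was 1.19 ± 0.46 (SE) above the CD11bCD64 macrophages, which did not pass (limma, adjusted p = 0.790). Cd163, a scavenger receptor for haemoglobin bound to haptoglobin, did pass in that comparison at 3.50 ± 0.39 (limma, adjusted p = 0.00261), beside 0.0631% of genes that were higher there.

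The 6 arrays also differed among themselves. Correlation over all genes ran from 0.00925 to 0.262 between GFP-minus arrays and from 0.0540 to 0.390 between GFP-plus arrays, on centred values that hold no common level. limma's array weights were lowest for GFP-plus array 1 (0.352) and GFP-minus array 2 (0.437). Xist, the RNA that silences an X chromosome in female cells, was near -5.2 on GFP-plus array 2 and GFP-minus array 3. These had Eif2s3y, a Y-linked gene, at 5.94 and 4.91. On GFP-minus array 2 Xist was -5.29 with Eif2s3y at 0.02, and on the remaining 3 arrays Xist lay between -0.03 and 1.09.

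Few genes passed in the GFP comparison of these macrophages, and the count depended on the processing. In limma 12 of 22180 genes (0.0541%) passed, and 6 rose and 6 fell in the GFP-plus cells (0.0271% each). The risen genes were Ms4a14, Pla2g2d, Epb41l3, Myo9a, Adamdec1 and Lig4. The fallen genes were Cd7, Lsp1, Gsn, Coro1a, Eef1g and Eif3f. Without adjustment, 2041 genes (9.2%) were at p under 0.05: 1201 (5.41%) with a positive and 840 (3.79%) with a negative difference. The estimate was above 0 for 52.8% of genes. Every GFP-plus array lay above every GFP-minus array for 7.54% of genes, and below for 5.44%. A fit to the 6 arrays alone, with their own estimate of the spread, passed 0 genes, with 1707 at an unadjusted p under 0.05. Quantile normalization passed 62 genes, 20 that rose and 42 that fell. With Xist as a covariate, a setting chosen after seeing the data, 3 genes passed.

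**Figure D1:**
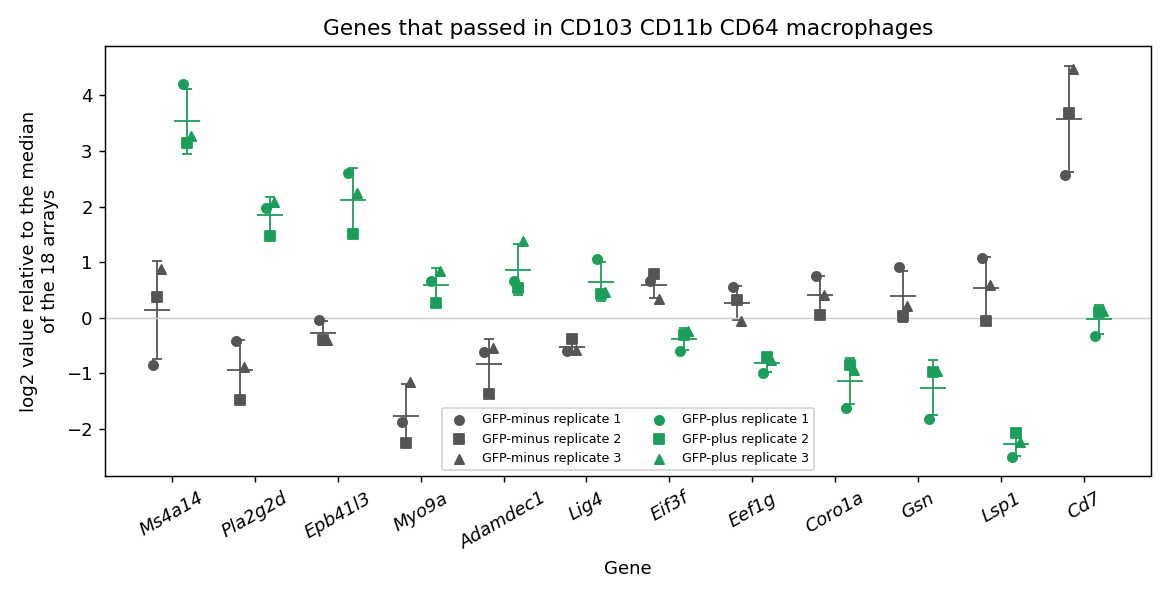
Each point is the centred log2 value of a gene on an array, grey for GFP-minus and green for GFP-plus, with the marker shape giving the replicate; bars are the group mean ± SD (n = 3). The groups do not overlap for any of the 12 genes, whose difference chose them, and Cd7 and Ms4a14 differ by over 3 log2 units.

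Among the genes that rose, Ms4a14 belongs to the family of tetraspanning MS4A membrane proteins. It stood at -0.84, 0.37 and 0.88 on the GFP-minus arrays and at 4.20, 3.14 and 3.26 on the GFP-plus arrays. Every GFP-plus array lay above every GFP-minus array, and GFP-plus array 1 was highest. The difference was 3.40 ± 0.49 (SE), a 10.5-fold rise (limma, adjusted p = 0.0269). Of the 18 measured MS4A genes it was the only member past the threshold, with 12 above 0 and a median of 0.05 beside 0.02 over all genes. Leaving out 1 array moved that median between -0.08 and 0.13. Ms4a4a, at 1.41 ± 0.62, and Ms4a8a, at -0.74 ± 0.16, did not pass.

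Pla2g2d encodes a secreted phospholipase A2 of antigen-presenting cells that has been tied to the resolution of inflammation. Its values were -0.43, -1.49 and -0.89 without GFP and 1.98, 1.46 and 2.09 with it. The GFP-plus arrays lay close together and all above the GFP-minus arrays, a difference of 2.78 ± 0.41 (SE), or 6.86-fold (limma, adjusted p = 0.0269). It was the only one of 24 measured genes of eicosanoid and phospholipase metabolism to pass. Hpgd, which inactivates prostaglandins, was 0.75 ± 0.19 higher and Hpgds, a prostaglandin D synthase, 1.41 ± 0.68 higher, and neither passed.

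Adamdec1 is a secreted metalloproteinase typical of intestinal macrophages. The GFP-minus arrays read -0.61, -1.37 and -0.54 and the GFP-plus arrays 0.66, 0.54 and 1.39. The groups did not overlap, and the rise was 1.70 ± 0.26 (SE), or 3.25-fold (limma, adjusted p = 0.0347). In the CD11bCD64 macrophages the gene lay between 0.62 and 1.61 with or without GFP, so the GFP-minus CD103 CD11b CD64 arrays were the lowest of the 12 macrophage arrays. Of 22 matrix proteases and inhibitors measured, Adamdec1 was the only member to pass, 16 were above 0 and the median was 0.42. It was 0.24 without GFP-minus array 2 and 0.25 without GFP-plus array 3. Mmp9, a gelatinase, was at 0.82 ± 0.24 and Mmp2, another, at 1.65 ± 0.68, and neither passed.

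Lig4 encodes DNA ligase IV, which seals double-strand breaks in non-homologous end joining. It read -0.60, -0.38 and -0.57 without GFP and 1.06, 0.43 and 0.46 with GFP. GFP-plus array 1 was the highest and the groups did not overlap. The rise was 1.17 ± 0.17 (SE), or 2.24-fold (limma, adjusted p = 0.0269). None of the other 17 measured genes of end joining and the p53 response passed, among them Prkdc, the catalytic subunit of the DNA-dependent protein kinase, at 0.77 ± 0.32, and Bbc3, the p53 target PUMA, at -1.09 ± 0.32.

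The actin and cortical cytoskeleton list held 2 genes that rose and 3 that fell past the threshold among 42 measured. Over all genes 0.0541% passed. The gene lists were written with earlier results of these data known, so this count is not independent of the genes that passed. Epb41l3, a protein 4.1 family member that links membrane proteins to the spectrin and actin cortex, read -0.03, -0.41 and -0.41 without GFP and 2.61, 1.50 and 2.25 with it. Myo9a, an unconventional myosin, read -1.87, -2.26 and -1.15 without GFP and 0.67, 0.26 and 0.84 with it. In both, every GFP-plus array lay above every GFP-minus array. The rises were 2.40 ± 0.32 (SE) for Epb41l3 and 2.35 ± 0.34 for Myo9a, or 5.28-fold and 5.11-fold (limma, adjusted p = 0.0269 for each).

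Lsp1, a leukocyte protein that binds filamentous actin, had the smallest adjusted p of all genes. It stood at 1.07, -0.06 and 0.59 on the GFP-minus arrays and at -2.50, -2.07 and -2.24 on the GFP-plus arrays. The GFP-plus arrays were tightly grouped about 2 log2 units or more below the others. The fall was -2.80 ± 0.34 (SE), 6.98-fold (limma, adjusted p = 0.0216). Gsn, the filament-severing protein gelsolin, read 0.91, 0.03 and 0.21 and then -1.83, -0.98 and -0.96, a change of -1.64 ± 0.24 (limma, adjusted p = 0.0269). Coro1a, the coronin of leukocytes that regulates Arp2/3, read 0.76, 0.05 and 0.41 and then -1.62, -0.86 and -0.94, a change of -1.55 ± 0.25 (limma, adjusted p = 0.0439). For both genes GFP-plus array 1 was the lowest, GFP-minus array 1 the highest, and the groups did not overlap. Over the whole list 25 of 42 were below 0, with a median of -0.27, which was -0.12 without GFP-plus array 1 and -0.40 without GFP-plus array 3. Tmsb10, which binds actin monomers, was at -1.02 ± 0.21 and Capg, which caps filaments, at -1.54 ± 0.35, and neither passed (both named after their values were seen).

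Cd7, a surface protein of T cells, natural killer cells and innate lymphocytes that some dendritic cells also carry, had the largest change. It read 2.57, 3.68 and 4.48 on the GFP-minus arrays and -0.33, 0.11 and 0.12 on the GFP-plus arrays. All GFP-minus arrays were far above, with array 3 the highest. The change was -3.61 ± 0.56 (SE), 12.2-fold (limma, adjusted p = 0.0354). Among 22 measured markers of T, natural killer and innate lymphocytes Cd7 alone passed, 15 were below 0 and the median was -0.93. At an unadjusted p under 0.05, 9 were lower and 0 were higher, against 3.79% and 5.41% of all genes. The mean over the list was 0.76, 0.83 and 1.83 on the GFP-minus arrays and -0.07, 0.37 and 0.23 on the GFP-plus arrays. Nkg7, a protein of cytotoxic granules, was at 1.38, 3.96 and 4.33 and then at 0.36, -0.05 and 0.76. Gzma, a granzyme, was at 2.88, 3.36 and 4.49 and then at 0.72, 2.59 and 1.35. Neither passed, though their groups did not overlap. Without GFP-minus array 3 the median of the list was -0.25. The part of lymphocyte RNA in the fall of Cd7 was not tested.

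Eef1g and Eif3f were the remaining genes that fell, and both belong to the translation machinery. Eef1g, a subunit of the elongation factor 1 complex, read 0.55, 0.31 and -0.07 without GFP and -0.99, -0.70 and -0.75 with it, a change of -1.08 ± 0.17 (SE; limma, adjusted p = 0.0439). Eif3f, a subunit of initiation factor 3, read 0.67, 0.79 and 0.33 and then -0.60, -0.30 and -0.24, a change of -0.98 ± 0.16 (limma, adjusted p = 0.0439). These were 2.12-fold and 1.97-fold, without overlap between the groups. They were the only ones of 35 translation factors to pass, 25 of which were below 0. The list's median was -0.34, and -0.15 without GFP-plus array 1.

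The cytosolic ribosomal protein genes lay lower in the GFP-plus cells nearly throughout, although 0 of 44 measured passed in limma after adjustment. At an unadjusted p under 0.05, 29 of 44 were lower and 1 was higher, against 3.79% and 5.41% of all genes. The estimate was below 0 for 40 of 44, and the median was -0.67 beside 0.02 over all genes. In 33 of 44 every GFP-minus array lay above every GFP-plus array, which 5.44% of all genes did. The mean over the 44 was 0.30, 0.32 and 0.16 on the GFP-minus arrays and -0.56, -0.20 and -0.41 on the GFP-plus arrays. All 3 GFP-minus means were above 0 and all 3 GFP-plus means below it. Across the other processing settings and with each array left out, the median stayed between -0.83 and -0.57. Under quantile normalization, 4 of the 44 passed. Ribosomal protein and translation factor genes have many processed pseudogenes, and whether the probes tell these apart is not known here.

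Rps3, a protein of the small subunit, read 0.49, 0.38 and 0.30 and then -0.67, -0.23 and -0.50, a difference of -0.86 ± 0.15 (SE; limma, adjusted p = 0.0713). Rpsa, the small-subunit protein also known as the laminin receptor, read 0.38, -0.11 and 0.19 and then -1.19, -0.60 and -0.94, a difference of -1.06 ± 0.19 (limma, adjusted p = 0.0727). Neither passed, and in both the GFP-plus arrays were all lower. Rps6, the substrate of S6 kinase, was at -0.68 ± 0.13 and Rpl10a, of the large subunit, at -1.84 ± 0.35, with GFP-plus array 1 the lowest for each.

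Transcripts of the translation machinery often begin with an oligopyrimidine tract, a C followed by an unbroken run of C and T, through which mTOR signalling sets how well they are translated. The tract governs translation, and arrays measure transcript amount, so the sequences are given as a description of the start sites only. The 30 bases around each annotated transcription start (15 before and 15 from it on) are given 5′ to 3′ for the 4 ribosomal protein genes with the smallest p and for Eif3f, from RefSeq on GRCm38.p6. Capitals mark the longest run of a C followed by at least 4 C or T on the transcribed strand.
Rps3, chr7:99483695-99483724, minus strand: cttgcaagggtcgccgcgctgcgcggcgtc
Rpsa, chr9:120127751-120127780, plus strand: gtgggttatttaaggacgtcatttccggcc
Rps6, chr4:86857353-86857382, minus strand: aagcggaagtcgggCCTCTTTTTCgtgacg
Rpl10a, chr17:28328456-28328485, plus strand: gtggcgCCCCCCCagcggccgcaaactgca
Eif3f, chr7:108934400-108934429, plus strand: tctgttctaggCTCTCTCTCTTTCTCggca
Rps6 and Eif3f hold runs of 10 and 15 bases, Rpl10a holds 7, all of them C, and Rps3 and Rpsa hold none in this window at the annotated start. The run of Rpl10a lies at bases 7 to 13 of its window, wholly before the annotated start and so outside that transcript. Rpl10a has another annotated start, whose window has no run. Among the ribosomal protein genes with a sequence, 23 of 36 (63.9%) had a run of 5 bases or more and 15 (41.7%) a run of 8 or more. The shares were 40.3% and 10.8% over all 27025 RefSeq genes of the table, and 26.9% and 15.4% over 26 translation factors. Runs were counted anywhere in the window, also before the start. A run is a match of letters, and the absence of a run says only that this window does not hold it. Eef1g was not matched to an entry.

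**Figure D2:**
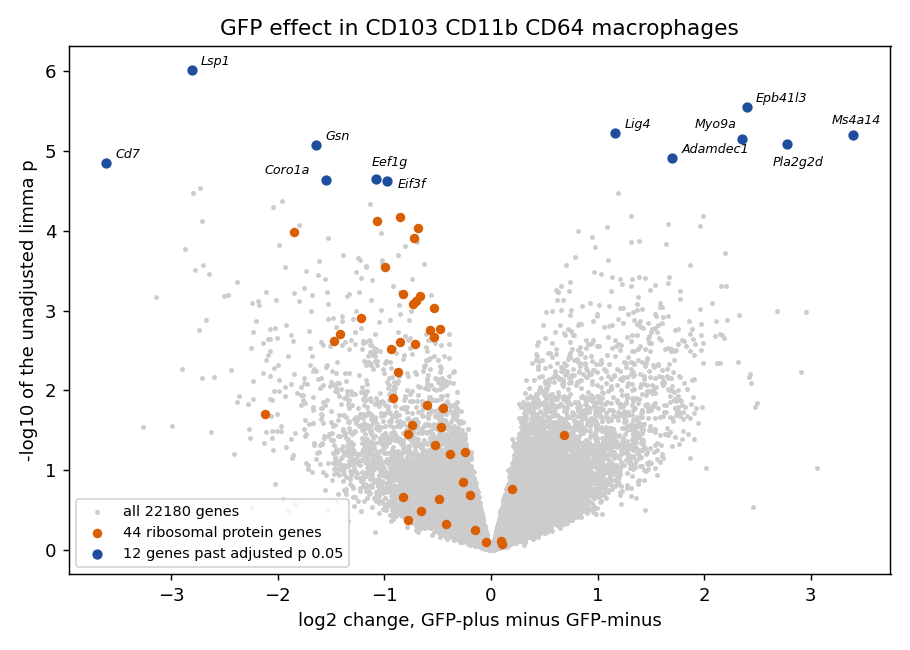
Each point is a gene, with the log2 difference between GFP-plus and GFP-minus CD103 CD11b CD64 macrophages on the horizontal axis and -log10 of the unadjusted limma p on the vertical axis. The 12 genes past the threshold (blue) lie on both sides, whereas 40 of the 44 ribosomal protein genes (orange) lie left of 0.

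Subunits of oxidative phosphorylation, the respiratory chain and ATP synthase, were also mostly below 0, in 30 of 34 measured. None passed in limma, and 12 were lower and 0 higher at an unadjusted p under 0.05, against 3.79% and 5.41% of all genes. The 12 became 6 without GFP-plus array 1, 7 without GFP-minus array 1 or 2, and 4 without the 2 arrays of lowest weight. The median was -0.57. Cox4i1, a subunit of cytochrome c oxidase, was at 0.87, 0.79 and 0.17 and then at -1.99, -0.25 and -0.35. GFP-plus array 1 was the lowest here and over the whole list, whose mean was -1.48 on it against -0.14 and -0.34 on GFP-plus arrays 2 and 3. Without that array the median of the list was -0.36.

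Monocyte genes, which mark cells newly arrived from the blood, were higher in the GFP-minus cells without passing. Of 16 measured, 0 passed in limma, 7 were lower and 1 higher in GFP-plus cells at an unadjusted p under 0.05 (3.79% and 5.41% of all genes), and the median was -0.51. In 8 of 16 every GFP-minus array lay above, against 5.44% of all genes. Plac8, a monocyte and neutrophil protein, read 0.81, 0.31 and 0.84 and then -2.44, -1.67 and -2.07, a difference of -2.71 ± 0.49 (SE; limma, adjusted p = 0.0727). Ccr2, the chemokine receptor that brings monocytes out of the bone marrow, read 1.64, 1.94 and 2.44 and then -0.84, 0.45 and -0.99. Ly6c2 read 1.22, 1.47 and 1.21 and then -1.25, -0.72 and -0.35. In all 3 genes the groups were separate. The mean over the list was 0.72, 0.52 and 0.92 on the GFP-minus arrays and -0.57, -0.01 and -0.20 on the GFP-plus arrays. Without GFP-minus array 3 the median was -0.28.

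Genes of long-lived resident macrophages gave no count past the threshold, at 0 of 24. At an unadjusted p under 0.05, 5 were higher and 0 lower in GFP-plus cells, against 5.41% and 3.79% of all genes. Of the 24, 13 were above 0 and 11 below, from -0.71 to 2.91. The median was 0.05, and -0.05 without GFP-minus array 2. Cd163 read 2.85, 0.63 and 3.79 and then 5.34, 4.30 and 4.27, a difference of 2.21 ± 0.55 (SE; limma, adjusted p = 0.168). All GFP-plus arrays were above all GFP-minus arrays, of which array 2 was far the lowest. Mrc1, the mannose receptor, was at 0.77 ± 0.20 and Stab1, the scavenger receptor stabilin-1, at 0.90 ± 0.25, also without overlap. In 6 of the 24 every GFP-plus array lay above every GFP-minus array, against 7.54% of all genes. In 1 every GFP-plus array lay below, against 5.44% of all genes.

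The genes of apoptotic cell uptake also gave 0 of 35, with 5 higher and 1 lower at an unadjusted p under 0.05, against 5.41% and 3.79% of all genes. Timd4, the phosphatidylserine receptor TIM-4 of resident macrophages, was at -1.28, -2.10 and -1.30 without GFP and at 0.76, 0.98 and 2.33 with it. The groups were apart, but the difference of 2.91 ± 0.90 (SE) did not pass (limma, adjusted p = 0.268). Mertk, the receptor kinase that recognises apoptotic cells through Gas6 and protein S, was at 1.33 ± 0.41 with overlapping arrays. Anxa1, annexin A1, went the other way at -1.35 ± 0.31 and did not pass.

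Lipid handling by the liver X receptors, which sense cholesterol derivatives, gave 0 of 21 in limma, with 4 higher and 0 lower without adjustment, against 5.41% and 3.79% of all genes. The median was 0.26, but 0.04 without GFP-plus array 3 and 0.49 without GFP-plus array 1. Abca1, the exporter of cholesterol, read 0.43, -0.61 and 0.50 and then 1.58, 1.12 and 1.74. It was higher on every GFP-plus array, by 1.37 ± 0.33 (SE; limma, adjusted p = 0.150), which did not pass. Lpl, lipoprotein lipase, was at 0.89 ± 0.31. Of 33 lysosomal genes 0 passed, with 1 higher and 1 lower without adjustment. Their median was 0.05, and between -0.09 and 0.18 with 1 array left out.

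No epithelial transcript passed in the GFP-plus cells. Of 31 enterocyte transcripts 0 passed in limma, with 4 higher and 2 lower at an unadjusted p under 0.05, against 5.41% and 3.79% of all genes. The median was 0.10, and between 0.03 and 0.18 with 1 array left out. Rbp2, the retinol-binding protein of absorptive cells, read -0.72, -0.36 and -0.87 and then 0.86, 2.68 and 1.51, a difference of 2.33 ± 0.57 (SE; limma, adjusted p = 0.157). Fabp2, the intestinal fatty acid-binding protein, read -1.49, -0.49 and -1.77 and then 0.91, 2.46 and 0.32. For both genes the GFP-plus arrays were above and array 2 highest, while Cdh1, which encodes E-cadherin, was at -0.47 ± 0.16. Of 18 transcripts of secretory epithelium 0 were past even an unadjusted p of 0.05.

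**Figure D3:**
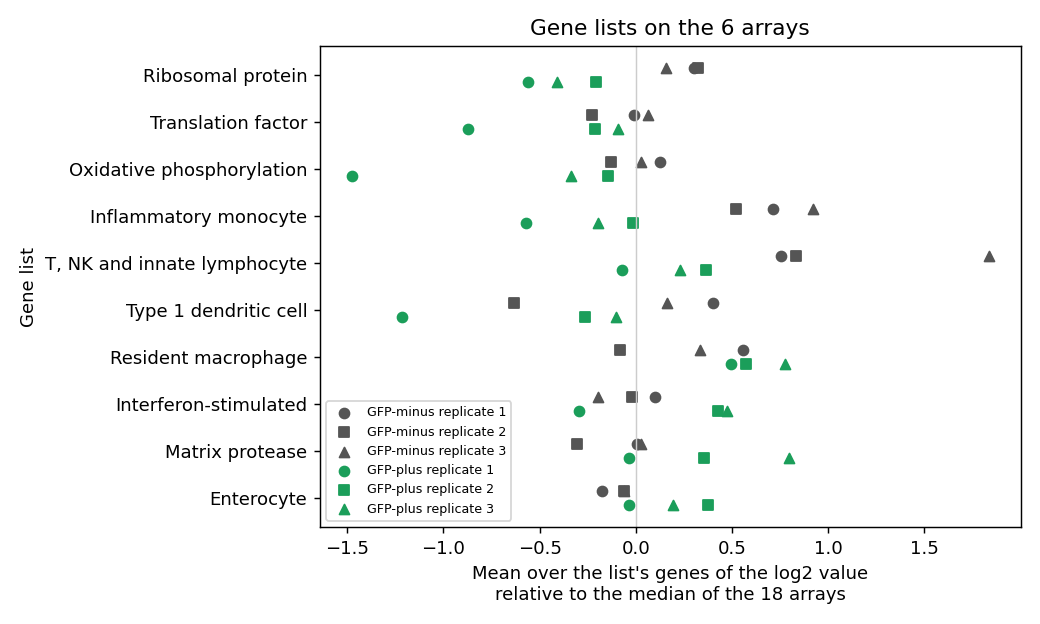
Each point is the mean centred log2 value of a gene list on an array, grey for GFP-minus and green for GFP-plus, with the marker shape giving the replicate. The groups are apart for ribosomal protein, inflammatory monocyte and T, NK and innate lymphocyte genes, and only narrowly for enterocyte and oxidative phosphorylation genes. GFP-plus replicate 1 lies far left for oxidative phosphorylation and translation factors.

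Interferon-stimulated genes, 20 measured, gave no single direction, with a median of -0.05 that ran from -0.21 without GFP-minus array 3 to 0.27 without GFP-plus array 1. None passed in limma, and 5 were higher and 0 lower at an unadjusted p under 0.05, against 5.41% and 3.79% of all genes. Oasl1, of the oligoadenylate synthetase family, read -1.12, -1.50 and -1.78 and then 0.79, 0.24 and 0.43, a difference of 1.96 ± 0.36 (SE; limma, adjusted p = 0.0737), separate but short of the threshold. Tlr7, the endosomal receptor for single-stranded RNA, was close to passing at 1.19 ± 0.20 (limma, adjusted p = 0.0505). It read -0.07, 0.02 and 0.11 without GFP and 0.88, 1.57 and 1.19 with GFP.

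Inflammatory mediators gave 0 of 32, with 4 higher and 3 lower at an unadjusted p under 0.05, against 5.41% and 3.79% of all genes. Il12b, the shared chain of interleukins 12 and 23, was at 1.32 ± 0.35 and Clec4e, the C-type lectin Mincle, at -1.92 ± 0.49, without overlap in either. Of 28 anti-inflammatory regulators 0 passed, with 2 higher and 0 lower without adjustment, and of 13 genes of MHC class II presentation 0 passed, with 2 lower and a median of -0.25. Without GFP-plus array 1 the latter had 0 lower and a median of -0.05.

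Dendritic cells are another cell type the sort could hold. Of 11 type 1 markers 0 passed, and 4 were lower and 0 higher at an unadjusted p under 0.05, against 3.79% and 5.41% of all genes. Their median was -0.37, but 0.01 without GFP-plus array 1 and -0.87 without GFP-plus array 3. Of 16 type 2 and general markers Cd7 alone passed, and 5 were lower and 0 higher without adjustment. Their median was -0.22, which was -0.11 without GFP-plus array 1 and -0.62 without GFP-minus array 2. Flt3, the growth factor receptor of dendritic cells, read 0.97, -0.06 and 0.45 and then -0.40, -0.30 and -0.27. The GFP-minus arrays were above, all of them below the dendritic cells of the series, at 3.73 or more. Cd24a, at 3.86 or more in the dendritic cells, read 1.65, -1.09 and 1.37 and then -1.86, -0.65 and -0.56. Xcr1, also higher in the dendritic cells, read -0.36, 0.03 and -0.39 and then -0.59, 1.51 and -0.03. Itgb7, the partner of CD103, read 0.78, -0.53 and 0.78 and then -2.08, -1.67 and -1.10, a difference of -1.96 ± 0.34 (SE; limma, adjusted p = 0.0584). Itgae differed by -2.07 ± 0.65 with overlap. Itgam and Fcgr1, of the CD11b and CD64 gates, differed by 0.07 and by -0.31 ± 0.32. Ptprc, which encodes CD45, read -0.89, -1.08 and 0.17 and then 0.19, 0.34 and 0.51. Its difference was 0.95 ± 0.30 without overlap, which did not pass (limma, adjusted p = 0.296). Itgax, which encodes CD11c, read -0.33, -1.20 and -0.31 and then -1.05, -0.18 and 0.47. H2-Ab1, of the MHCII gate, lay between -0.05 and 0.09 in both groups. The part of other cell types in these differences was not tested.

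Lineage genes were also taken from the other 12 arrays alone, at a difference of at least 2 log2 units between CD11bCD64 macrophages and dendritic cells, a split chosen after seeing the data. The 461 genes higher in CD11bCD64 macrophages had a median of 0.24 in the GFP comparison of the CD103 CD11b CD64 cells, and 17.8% were higher and 3.47% lower without adjustment. The 127 genes higher in dendritic cells had a median of -0.20, with 18.9% lower and 6.3% higher. Over all genes 5.41% were higher and 3.79% lower. For the macrophage genes, GFP-plus array 1 had a median of -0.02, below GFP-minus arrays 1 and 3 at 0.26 and 0.14. GFP-minus array 2 did not follow this for the dendritic cell genes, whose median on it was -0.41, below GFP-plus arrays 2 and 3 at -0.20 and -0.14. Of the 12 genes past the threshold, Adamdec1 and Pla2g2d were in the macrophage class, Lsp1 was in the dendritic cell class and 9 were in neither. Several of the 9 differed between the lineages at an adjusted p under 0.05 in limma, by less than 2 log2 units. Macrophages minus dendritic cells, these were Epb41l3 at 1.84, Ms4a14 at 1.43, Myo9a at -0.97, Gsn at -0.92 and Eef1g at -0.47. Cd7, Coro1a, Eif3f and Lig4 did not pass there.

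The GFP effect was then set beside that of the CD11bCD64 macrophages, which share no array with it. The estimates of 11 of the 12 genes had the same sign there, Lig4 being the exception at -0.12 ± 0.17 (SE), against 57.6% of all genes. Among the 11, Gsn at -0.09 ± 0.24 and Cd7 at -0.40 ± 0.56 had estimates smaller than their SE. Lsp1, at -2.69 ± 0.34, and Epb41l3, at 2.50 ± 0.32, passed in both populations (limma, adjusted p = 0.0155 for each in CD11bCD64 macrophages), where 0.0271% of genes passed. Across all genes the effects of the 2 populations correlated with Pearson's r = 0.363 and a Spearman correlation of 0.271, as a description over genes, which are not independent replicates. The test of the difference between these effects passed for 0 genes in limma, with 834 (3.76%) at an unadjusted p under 0.05 and a smallest adjusted p of 0.709. It was 2.21 ± 0.69 for Ms4a14, -1.55 ± 0.34 for Gsn and -3.21 ± 0.79 for Cd7, and such sizes were not past the threshold. Without GFP-plus array 1 the difference passed for 2 genes, and for 2 without GFP-minus array 1.

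The median of the ribosomal protein genes was -0.30 in the CD11bCD64 macrophages and -0.25 in the dendritic cells, where 5 and 9 of the 44 were above 0. Over all 22180 genes, 11503 and 10457 were above 0 there, with medians of 0.01 and -0.02. In the same order, the medians were -0.12 and -0.54 for oxidative phosphorylation, with 12 and 3 of 34 above 0. They were -0.09 and -0.40 for translation factors, with 13 and 7 of 35 above 0. Monocyte genes had medians of -0.96 and -0.16, with 3 and 6 of 16 above 0. Plac8 fell in the CD11bCD64 macrophages, at -3.62 ± 0.49 (SE; limma, adjusted p = 0.0178). Lymphocyte markers had medians of -0.16 in CD11bCD64 macrophages and -0.13 in dendritic cells, where 7 and 5 of the 22 were above 0. In the dendritic cells Gzma passed at -3.87 ± 0.47 (limma, adjusted p = 0.000978), while Nkg7 was at -0.08 ± 0.57. In the CD11bCD64 macrophages Gzma was at 0.43 ± 0.47.

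Set beside the CD103 dendritic cells, the effect of GFP differed for 77 genes in limma (0.347%), 62 of them (0.28%) more positive and 15 (0.0676%) more negative in the CD103 CD11b CD64 macrophages. In the dendritic cells 7 of the 12 genes had the same sign, as did 50.7% of all genes. The difference itself passed for 5 of the 12, namely Adamdec1 at 2.67 ± 0.37 (SE; limma, adjusted p = 0.00544), Myo9a at 3.17 ± 0.48, Lsp1 at -2.95 ± 0.48, Epb41l3 at 2.54 ± 0.45 and Ms4a14 at 3.53 ± 0.69. The 12 were chosen by the GFP effect in the CD103 CD11b CD64 macrophages, which is 1 term of this difference. That choice favours large differences, so the 5 of 12 cannot be set against the share of all genes. In the dendritic cells Lsp1 lay between 1.58 and 2.04 with or without GFP, whereas the GFP-plus macrophages had values below -2. Leaving out single arrays moved this count between 36 and 239.

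**Figure D4:**
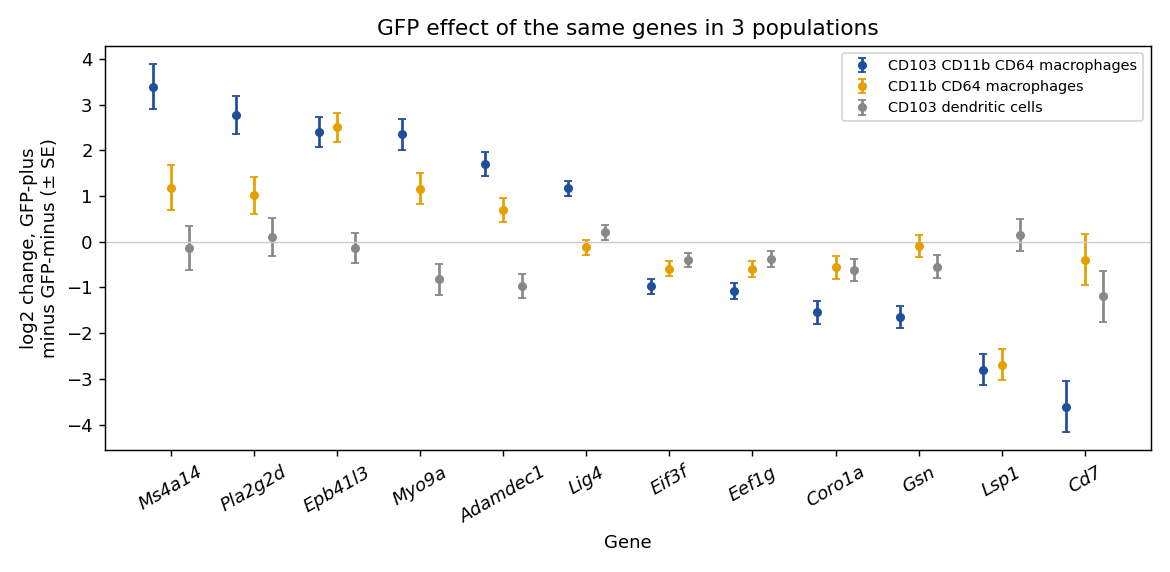
Points are the limma log2 difference between GFP-plus and GFP-minus cells, with bars of ± SE, for the 12 genes in CD103 CD11b CD64 macrophages (blue), CD11b CD64 macrophages (orange) and CD103 dendritic cells (grey). Epb41l3 and Lsp1 have nearly the same difference in both macrophage populations and lie near 0 in the dendritic cells.

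Single arrays decided several calls. Lsp1 and Epb41l3 passed with any 1 of the 6 arrays left out. Without GFP-minus array 1, Ms4a14 at 2.91, Gsn at -1.38, Lig4 at 1.13, Myo9a at 2.30, Adamdec1 at 1.81, Coro1a at -1.37, Eef1g at -0.94 and Eif3f at -0.94 no longer passed. Without GFP-minus array 2 the same held for Pla2g2d at 2.50, Myo9a at 2.10, Adamdec1 at 1.44, Cd7 at -3.56, Eef1g at -1.06 and Eif3f at -0.88. Without GFP-plus array 1 it held for Cd7 at -3.46, Coro1a at -1.31, Eef1g at -0.99 and Eif3f at -0.87. Without GFP-plus array 2 it held for Cd7 at -3.68, Eef1g at -1.14 and Eif3f at -1.02. Without GFP-plus array 3 it held for Pla2g2d at 2.66, Myo9a at 2.23, Adamdec1 at 1.44, Cd7 at -3.68, Coro1a at -1.65, Eef1g at -1.11 and Eif3f at -1.05. All 12 kept their sign in each of these fits, which was fixed in advance because their groups do not overlap.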

How the data were processed

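The authors deposited 1 table of log2 values for 33793 probes of 18 arrays, each probe centred on its median. Base 2 was inferred from the width of the values. The authors' summarisation and normalization, not given in the sources used here, could shift all values. Per the labels' protocols, 1 ng of RNA was amplified (NuGEN WT Ovation Pico). Of the probes, 23521 had 1 gene symbol, 1814 several and 8458 none, and probes of a gene were averaged (1082 genes), which left 22180. A model with group means of the 18 arrays was fitted in limma 3.58.1 (R 4.3.3; 12 residual and 2.09 prior degrees of freedom), with Benjamini-Hochberg adjustment and a threshold of 0.05. The script was tested on simulated data. Genes named were those past the threshold, the 10 next by p in each direction, the sort markers and up to 4 genes by p from each list. The members and gene lists were chosen with earlier results of these data known. Alternatives were quantile normalization, array weights, a replicate block, probe choice, a filter on spread, the 6 arrays alone and each array left out. The number of arrays limits the precision.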

Additional observations from a re-analysis of the deposited data

Results flagged for a closer look

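The GFP effect in CD103 CD11b CD64 macrophages differed from that in CD103 dendritic cells for 77 genes by limma's test of the difference. The difference of effects, in log2 units, was 2.67 for Adamdec1, 2.54 for Epb41l3, -2.95 for Lsp1, 3.53 for Ms4a14 and 3.17 for Myo9a, all of which changed in the macrophages. They had been chosen by that change, which is part of the difference. For the genes with the smallest p in either direction, the change was mostly in the dendritic cells. Gm3336 differed by 2.28, Ms4a7 by 2.65, Trit1 by 3.63, Zfp367 by 3.14 and Dapk2 by 4.30. In these 5 genes the GFP effect was negative in the dendritic cells, from -4.32 to -2.16, and between -0.03 and 0.49 in the CD103 CD11b CD64 macrophages, where none passed. In the other direction Ly75 differed by -1.48, Cd63 by -2.14, Nudt17 by -3.39, Gclc by -3.97 and Eno3 by -3.95. Of these, Eno3, the muscle form of enolase, was also lower in GFP-plus macrophages without passing, at -1.37 ± 0.37 (SE).

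Among the 10272 probes with several gene symbols or none, which the comparisons of genes did not use, 2 passed for the GFP effect in limma. Their changes were 1.42 ± 0.19 and -1.03 ± 0.14 (SE), and they are unnamed here.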

How the results depend on the processing

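For the GFP effect, 12 genes passed, against 62 (20 higher, 42 lower) with quantile normalization, 95 with array weights, 0 with the 6 arrays alone, 20 without the 2 arrays of lowest weight and 3 with Xist as a covariate, the last 2 settings chosen after seeing the data. Of the 12, only Lsp1, Gsn and Lig4 were among the 20, and 2 were among the 3. With 1 array left out the count ran from 11 to 60, the highest without GFP-minus array 3 and 30 without GFP-plus array 1. For the difference from CD11bCD64 macrophages, 0 became 3 without the 2 arrays of lowest weight, and 0 to 2 with 1 array left out. For the difference from dendritic cells, 77 became 21 with quantile normalization, 186 with array weights and 118 among the genes whose spread was above the median, and 36 to 239 with 1 array left out. The highest came without dendritic cell GFP-plus array 2. The causes were not tested. Over 32 genes and these settings no gene changed sign. The 32 were chosen by the smallest p in this comparison, and their groups do not overlap. Leaving out 1 array could therefore not change a sign. The 12 genes that passed lost the call in 65 of 191 combinations of gene and setting. Same-numbered arrays did not deviate together (r = -0.138, -0.0849 and 0.183), so the numbers were not taken as pairs. With the replicate number as a block, 16 genes passed (9 higher, 7 lower) for the GFP effect, 10 of the 12 among them but not Coro1a or Eif3f, 0 for the difference from CD11bCD64 macrophages and 114 for that from dendritic cells. The median of the monocyte genes was -2.03 and that of enterocyte genes 0.33 among genes of wider spread, which leaves fewer genes.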

Other observations

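Several genes next to the threshold were not described above and are given as values. Snrpd2, a core protein of the spliceosome, was at -2.79 ± 0.47 (SE), Napsa, an aspartic protease, at -2.73 ± 0.45, and Tuba1a, an alpha-tubulin, at -1.80 ± 0.33. Dclre1b, the nuclease Apollo that protects telomeres, was at -2.04 ± 0.36, opposite in sign to Lig4. In the other direction, Pmp22, the peripheral myelin protein, read 0.96, 0.96 and 1.13 without GFP and 3.71, 2.47 and 2.84 with it. Pikfyve, the lipid kinase of endosome and lysosome traffic, was at 1.31 ± 0.23 and Hsp90aa1, the inducible cytosolic chaperone, at 1.09 ± 0.20. Vcam1, an adhesion molecule, was at 1.31 ± 0.25. The arrays of the 2 groups did not overlap for any of these 8 genes, as for 13% of all genes, and limma's adjusted p lay between 0.0505 and 0.0842.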
